A study of Mus musculus with 12 samples.

Results

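The 39 genes of homologous recombination and the Fanconi anemia pathway were followed in RNA-seq profiles of 12 mammary tumors from 9 MADM-mutant mice. They were taken by symbol from an expression table of 47593 genes, in which all 39 were found. A mean level over mice of 1 TPM (transcript abundance scaled by transcript length and library total) or more was reached by 38 of them and by 16802 genes in all, and the exception was Dmc1. The samples form one group with no normal gland among them: untreated female mice of mixed background that carry MADM cassettes (RG and GR in the labels, TG and GT in the methods of the study), a conditional Brca1 allele and a p53 knockout allele on one copy of chromosome 11, and MMTV-Cre. In MADM (mosaic analysis with double markers), Cre-driven exchange between homologous chromosomes in a dividing cell leaves sparse GFP-positive cells that lack both Brca1 and p53 in a heterozygous gland. The MMTV promoter drives Cre mostly but not only in mammary epithelium, and each library came from a piece of tumor that can also hold heterozygous and unrelated cells. A single tumor was taken from each of 7 mice, 1 mouse bore tumors 3 and 4, 1 mouse bore tumors 10, 11 and 12, and the labels give no age. Beyond an animal number and a short code for the tumor within it, the labels do not say how these samples are related. The p-values below come from permuting pairings over these mice or animal labels over tumors, and refer to these animals only.

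Homologous recombination repairs a broken DNA molecule by copying the sister chromatid, and it works mainly while DNA is being replicated and before mitosis. The ends are first trimmed back to single strands, BRCA1 with BARD1 and PALB2 brings in BRCA2, BRCA2 loads the recombinase, and helicases and nucleases resolve the joined molecules. The Fanconi pathway unhooks crosslinks between strands at stalled forks by attaching ubiquitin to the FANCI-FANCD2 pair and hands the resulting break to the same recombination proteins, several of which are also Fanconi genes. Loss of BRCA1 disables the pathway in breast epithelium and leaves cells dependent on other repair routes, among them PARP1 and polymerase theta.

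Tumor 2 stood apart from the other libraries. Its 8 epithelial markers summed to 1.87 TPM against 161 to 8505 TPM in the other 11 tumors, with Epcam and Krt19 at 0, while its 10 B lymphocyte markers summed to 9426 TPM against 12.9 to 339 TPM. Cd79a, a chain of the B cell receptor complex, had 609 TPM in tumor 2, and Igll1, a surrogate light chain of B cell precursors, had 2261 TPM. Tumor 8 was the next lowest in epithelial markers, with a median of 3.39 TPM over the list. Tumor 2 had 0.19 TPM and every other tumor 316 TPM or more. The fibroblast markers of tumor 8 had the highest sum of the 12 (3117 TPM), while by median tumor 4 was higher (442 against 333 TPM). The tissue label thus has little support in tumor 2 from its epithelial markers. Counts of correlated members are therefore given with and without tumor 2, the main count also without tumors 2 and 8, and mean levels are over all mice. In tumor 9 the T lymphocyte markers were the highest of the 12 (131 TPM in sum, against 5.33 to 83.2 TPM). The median of the endothelial markers was also highest there (16.2 TPM, with 15.6 TPM in tumor 8 and 10.4 TPM or less elsewhere). By sum the endothelial markers were higher in tumors 8 and 7 (143 and 86.0 TPM) than in tumor 9 (85.3 TPM). In bulk tumors fewer cells of a type and less RNA per cell cannot be told apart.

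Brca1, the targeted gene, was listed in every tumor. It lies on chromosome 11 from 101488764 to 101551955 on the minus strand of GRCm38 and had 11.4, 24.7, 20.3, 20.3, 13.8, 9.93, 18.1, 9.84, 6.93, 9.08, 16.6 and 15.8 TPM in tumors 1 to 12. Tumor 2 was the highest and tumor 9 the lowest, and the mean was 14.3 ± 5.71 TPM (SD, n = 9 mice). Trp53, the other targeted gene and no member, ranged from 30.2 TPM in tumor 9 to 74.2 TPM in tumor 6 with a median of 58.8 TPM. The conditional Brca1 allele loses only its large central exon, and a value per gene neither separates such a transcript from an intact one nor tumor cells from heterozygous cells, so these levels do not test the genotype.

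Promoter sequences are shown here because many of these genes moved together across tumors. RefSeq windows of GRCm38.p6 from 250 bases before to 50 after a transcription start were found for 30 of the 39 genes. Exo1, Nbn, Rad51d, Xrcc2, Rad50, Rad54b, Fancd2, Rif1 and Rbbp8 had no entry. An E2F-type motif (TTTCCCGC, TTTCGCGC, TTTGCCGC or TTTGGCGC on either strand) was in the windows of 6 of the 30 genes (20%) and of 2.60% of 27025 genes. A CHR-type motif (TTTGAA or TTCGAA) was in 4 of 30 (13.3%) against 21.7%, and CCAAT was in 17 of 30 (56.7%) against 41.1%, and no match of one motif overlapped a match of another. The letters are a description of these windows and mark no site of binding. The windows around the E2F-type letters, which are in capitals, are as follows, each 48 bases long and read 5′ to 3′ on the strand of the gene: Brca2 (chr5:150522433-150522480, plus), Bard1 (chr1:71103154-71103201, minus), Rad51c from both of its annotated starts (chr11:87404468-87404515 and chr11:87404932-87404979, minus), Dmc1 (chr15:79605081-79605128, minus), Fancg (chr4:43010326-43010373, minus) and Chek2 (chr5:110839811-110839858, plus).
Brca2: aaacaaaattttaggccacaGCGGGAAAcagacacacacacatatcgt
Bard1: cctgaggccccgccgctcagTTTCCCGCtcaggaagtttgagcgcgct
Rad51c, first start: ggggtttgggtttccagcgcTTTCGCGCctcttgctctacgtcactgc
Rad51c, second start: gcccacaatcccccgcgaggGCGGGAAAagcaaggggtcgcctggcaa
Dmc1: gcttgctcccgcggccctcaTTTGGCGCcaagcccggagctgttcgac
Fancg: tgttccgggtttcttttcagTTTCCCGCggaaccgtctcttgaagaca
Chek2: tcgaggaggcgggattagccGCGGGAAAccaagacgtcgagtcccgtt
The full windows of the mutated gene Brca1 (chr11:101551906-101552205, minus) and of Rad51b (chr12:79297101-79297400, plus, from the downstream of its annotated starts) and Fanci (chr7:79392088-79392387, plus), the members with the highest r with Mki67 below, held no E2F-type letters, and CCAAT (or ATTGG on the other strand) and TTTGAA are in capitals where they occur.
Brca1: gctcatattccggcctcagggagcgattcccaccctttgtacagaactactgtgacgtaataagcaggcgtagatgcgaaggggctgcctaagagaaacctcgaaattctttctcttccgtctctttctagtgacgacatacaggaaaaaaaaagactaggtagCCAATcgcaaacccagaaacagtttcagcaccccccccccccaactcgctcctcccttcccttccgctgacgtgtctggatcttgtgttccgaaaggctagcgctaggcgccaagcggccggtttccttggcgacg
Rad51b: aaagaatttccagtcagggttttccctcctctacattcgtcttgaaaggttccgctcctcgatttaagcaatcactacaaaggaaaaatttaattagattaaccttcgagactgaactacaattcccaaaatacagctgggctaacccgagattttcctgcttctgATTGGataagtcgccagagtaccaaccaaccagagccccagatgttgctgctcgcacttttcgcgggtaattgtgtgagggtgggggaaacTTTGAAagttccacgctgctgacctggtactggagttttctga
Fanci: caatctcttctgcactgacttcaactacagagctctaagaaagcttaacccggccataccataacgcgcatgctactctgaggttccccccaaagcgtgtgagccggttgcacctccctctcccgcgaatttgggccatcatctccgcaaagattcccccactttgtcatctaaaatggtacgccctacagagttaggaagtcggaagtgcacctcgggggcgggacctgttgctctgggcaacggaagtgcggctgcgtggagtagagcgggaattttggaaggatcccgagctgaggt

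Levels differed widely between members and less between tumors. TPM divides by transcript length, so levels of different genes can be set side by side. Parp1, which binds broken DNA and builds poly(ADP-ribose) chains, was the most abundant with 68.1 ± 15.6 TPM (SD, n = 9 mice), with a lowest value of 42.7, a median of 67.8 and a highest of 95.6 TPM over tumors. No other member had a mean above the 31.1 ± 8.50 TPM of Rbbp8, whose product CtIP starts end trimming. At the other end, Rad51b had 1.63 ± 1.19 TPM and Rad51c 3.36 ± 1.78 TPM. Dmc1, the recombinase of meiosis, was listed at 0 in tumors 4, 6, 7, 9, 10 and 12 and reached 2.46 TPM in tumor 5. In the BRCA1 and BRCA2 group, Brca2, Bard1 and Palb2 had means of 6.85, 7.50 and 8.55 TPM, below Brca1 (14.3 TPM) and Rbbp8. The SDs of the first 3, 3.25, 3.75 and 4.74 TPM, are larger than the gaps between them. Without tumor 2 the mean was 7.38 TPM for Bard1 and 7.08 TPM for Palb2, the reverse order.

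The 3 subunits of the MRN complex lay close together, with means of 18.0 ± 4.89 TPM for Rad50, 21.3 ± 5.97 TPM for Mre11a and 22.6 ± 6.04 TPM for Nbn (SD, n = 9 mice), differences smaller than the spread over mice. Their highest tumors were not the same. Mre11a peaked in tumor 6 (32.5 TPM) and was lowest in tumor 9 (13.3 TPM), while Rad50 and Nbn peaked in tumor 2 (25.3 and 31.6 TPM) and Rad50 was lowest in tumor 8. Exo1, which extends the trimming, had a mean of 9.48 ± 3.89 TPM and its lowest value, 2.14 TPM, in tumor 9.

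The Fanconi core differed in level among its subunits, whose products assemble into a ubiquitin ligase. Fance had 27.8 ± 5.03 TPM, Fanca 19.0 ± 9.28 TPM, Fancg 14.6 ± 4.40 TPM and Fancc 12.5 ± 5.08 TPM, whereas the catalytic subunit gene Fancl had 9.83 ± 6.49 TPM, Fancb 5.54 ± 3.06 TPM and Fancf 4.52 ± 2.92 TPM. Fancl was high in tumors 2, 3 and 4 (24.2, 17.6 and 15.8 TPM) and lay at 9.12 TPM or less in the other 9 tumors. Fancc had the reverse placing, with 5.85, 5.19 and 6.56 TPM in those 3 tumors and 6.86 TPM in tumor 9, against 10.9 TPM or more in the remaining tumors. Xrcc3, a recombinase paralog, was also highest in tumors 2, 3 and 4 (29.5, 29.8 and 22.9 TPM), with 13.9 TPM or less elsewhere. These patterns were picked out after the values were seen. The 5 skeletal muscle markers summed to 62.8, 365 and 245 TPM in tumors 2, 3 and 4 and to 23.6 TPM or less in the others, and their part in these patterns was not tested. The substrate pair had similar means, 7.78 ± 5.65 TPM for Fanci and 8.85 ± 5.41 TPM for Fancd2.

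Of the checkpoint kinases, Chek2 had the highest mean (21.1 ± 6.88 TPM), followed by Chek1, Atr (12.0 ± 4.64 TPM) and Atm (8.90 ± 3.29 TPM), and each was highest in tumor 2. Of the genes that act against or beside recombination, Rif1 had 29.0 ± 8.52 TPM with its highest value in tumor 3 (46.8 TPM), and Polq had 5.41 ± 2.83 TPM, from 1.90 TPM in tumor 9 to 11.2 TPM in tumor 2.

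Tumor 2 held the highest value of 25 of the 39 genes and tumor 9 the lowest value of 24. The share of all genes with these tumors at their ends was not counted, so the counts are not read as a trait of the members. The median over the 39 genes was 22.7 TPM in tumor 2, 6.05 TPM in tumor 9 and 8.37 to 12.9 TPM in the other tumors. The part of the T lymphocyte and endothelial markers of tumor 9 in these values was not tested. Blm, the Bloom helicase that dissolves double Holliday junctions, spanned the widest range of the 38, from 2.95 TPM in tumor 9 through a median of 11.4 TPM to 37.1 TPM in tumor 2, a ratio of 12.6. Chek1, the kinase that holds back mitosis when forks stall, came next, from 2.86 through 11.6 to 32.8 TPM in the same tumors. Both places rest on tumor 2. Without it the ratio was 5.27 for Blm and 5.38 for Chek1, and Rad51b (7.93), Exo1 (7.25), Fanca (7.22), Bard1 (6.64) and Rad51c (6.19) had wider ranges. The narrowest ranges belonged to Slx4, a scaffold for nucleases, with a ratio of 1.77 between its highest and lowest tumor, and Fance, a subunit of the Fanconi core, with a ratio of 1.82 (20.1 to 36.6 TPM). Some members had another order of tumors. Rad51d was highest in tumor 9 (19.8 TPM) and lowest in tumor 7, Trp53bp1, which shields ends from trimming, was lowest in tumor 2 (18.5 TPM), and Fanca was highest in tumor 8 (36.9 TPM).

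**Figure D1:**
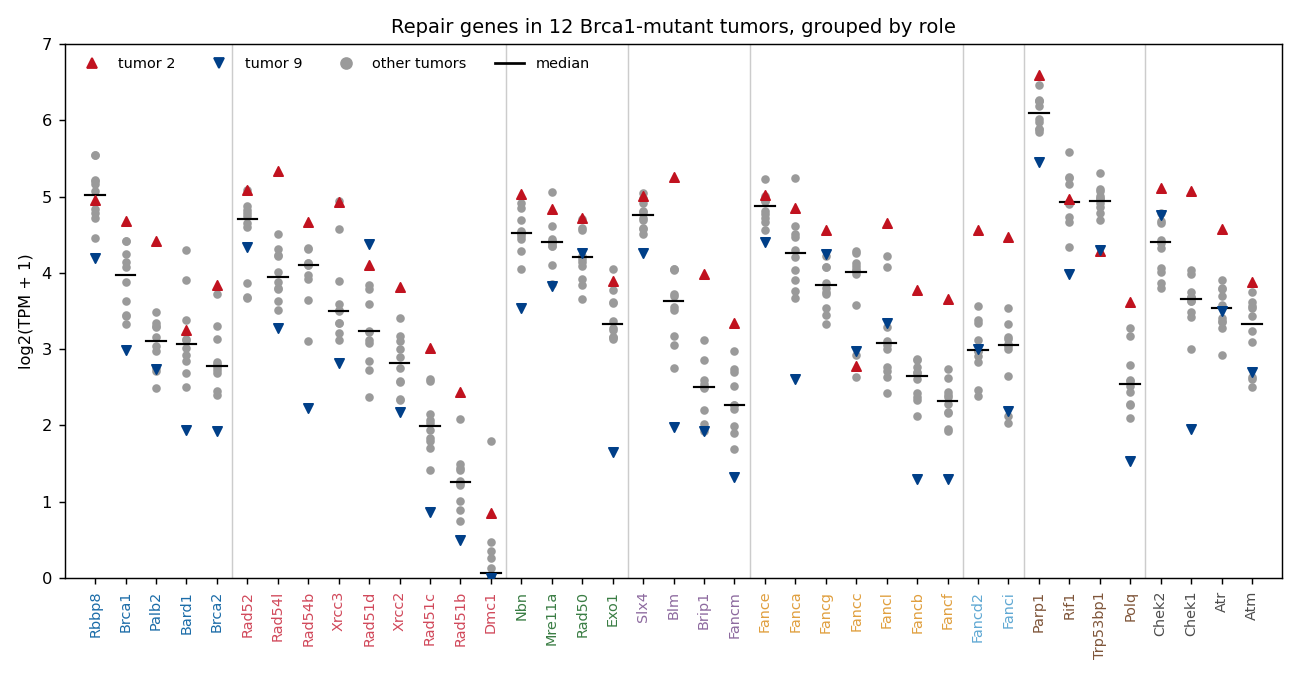
Level of each repair gene on a log2(TPM + 1) axis in the 12 tumors, with genes grouped by role along the horizontal axis and ordered by mean level within a role. Points are tumors, bars are medians, and the marks of tumor 2 and tumor 9 show that tumor 2 is highest for 25 genes and tumor 9 lowest for 24 of the 39. The share of all genes with these tumors at their ends was not counted.

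Mki67, the gene of the proliferation antigen Ki-67, served as the yardstick of proliferation. It ranged from 33.0 TPM in tumor 9 through a median of 74.4 TPM to 170 TPM in tumor 2. On the log2(TPM + 1) scale, with tumors of one mouse averaged, 21 of the 38 members correlated positively with it at an unadjusted p under 0.05 (exact permutation of the pairings, two-sided, n = 9 mice), against 9.58% of 16801 genes. No member correlated negatively at that level, and the median r was 0.71 for members and 0.03 for all genes. After Benjamini-Hochberg adjustment over all genes no member passed, with a lowest adjusted p of 0.0884, and 1 gene of all did (0.00595%), Kif22, a chromosome-arm motor (r = 0.99, exact permutation p = 2.76e-06, the smallest possible, adjusted p = 0.0463). No gene passed the adjustment once any 1 mouse was left out. With 8 mice the smallest possible exact p is 2.48e-05, at which 1 gene alone cannot pass, so no conclusion on Kif22 is drawn. Without tumor 2, Kif22 had r = 0.99 (exact permutation p = 2.48e-05, adjusted p = 0.138). By Spearman's rho 16 members passed the unadjusted level, against 6.19% of genes, and none the adjusted one.

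Rad51b, a recombinase paralog, was the closest member to Mki67. It had 0.41 TPM in tumor 9, a median of 1.39 TPM and 4.41 TPM in tumor 2, with r = 0.93 (exact permutation p = 0.00022, n = 9 mice) and Spearman's rho = 0.92 (exact p = 0.00131). Fanci, a member of the ubiquitylated Fanconi pair, ranged from 3.10 TPM in tumor 8 through 7.30 TPM to 21.3 TPM in tumor 2, with r = 0.91 (exact p = 0.000725) and rho = 0.88 (exact p = 0.00308). Both are low in tumors 1, 8 and 9 and high in tumor 2, with the other tumors between. Blm followed with r = 0.90 (exact p = 0.00106), Fancm, the helicase that anchors the Fanconi core to DNA, with r = 0.90 (exact p = 0.00137), and Brca1 with r = 0.89 (exact p = 0.00167). For these 5 members the adjusted p lay between 0.0884 and 0.133.

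By role, the share of members that passed the unadjusted level differed, although no test of that difference was made. In the BRCA1 and BRCA2 group 4 of 5 passed (Brca1, Brca2, Palb2 and Bard1, with r from 0.71 to 0.89) and Rbbp8 had r = 0.52. Among the recombinase paralogs and RAD54 family 6 of the 8 tested passed, namely Rad51b, Rad51c, Xrcc2, Xrcc3, Rad54l and Rad54b, while Rad52 (r = 0.24) and Rad51d (r = -0.23) did not. Of the helicases and junction genes Blm, Fancm and Brip1 passed and Slx4 (r = 0.44) did not. In the group of end resection and the MRN complex, the sensor of broken ends, only the exonuclease gene Exo1 passed (r = 0.71, exact permutation p = 0.0242), and Mre11a, Rad50 and Nbn had r of 0.25, 0.30 and 0.65.

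The Fanconi genes split. Of the 7 core subunits Fancb (r = 0.78) and Fancf (r = 0.85) passed, while Fanca, Fancl, Fance, Fancg and Fancc had r of 0.63, 0.55, 0.31, 0.15 and -0.20. Fanci passed, and its partner Fancd2 did not (r = 0.55, exact permutation p = 0.124). Fancd2 had 4.23 TPM in tumor 3, a median of 6.95 TPM and 22.7 TPM in tumor 2, and tumors 3 and 4, with 123 and 102 TPM of Mki67, held its lowest values. Polq, the gene of polymerase theta (r = 0.86), Parp1 (r = 0.82) and Rif1, a partner of 53BP1 (r = 0.77), passed, and Trp53bp1 itself did not (r = -0.10). Of the checkpoint kinases Chek1 passed (r = 0.72), and Atr, Chek2 and Atm had r of 0.62, 0.57 and 0.40. Without tumor 2 the BRCA1 and BRCA2 group still had 4 genes past the unadjusted level and the end-protection group 3, while the recombinase paralogs and RAD54 family had 3 in place of 6 and the checkpoint kinases and resection genes had 0.

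**Figure D2:**
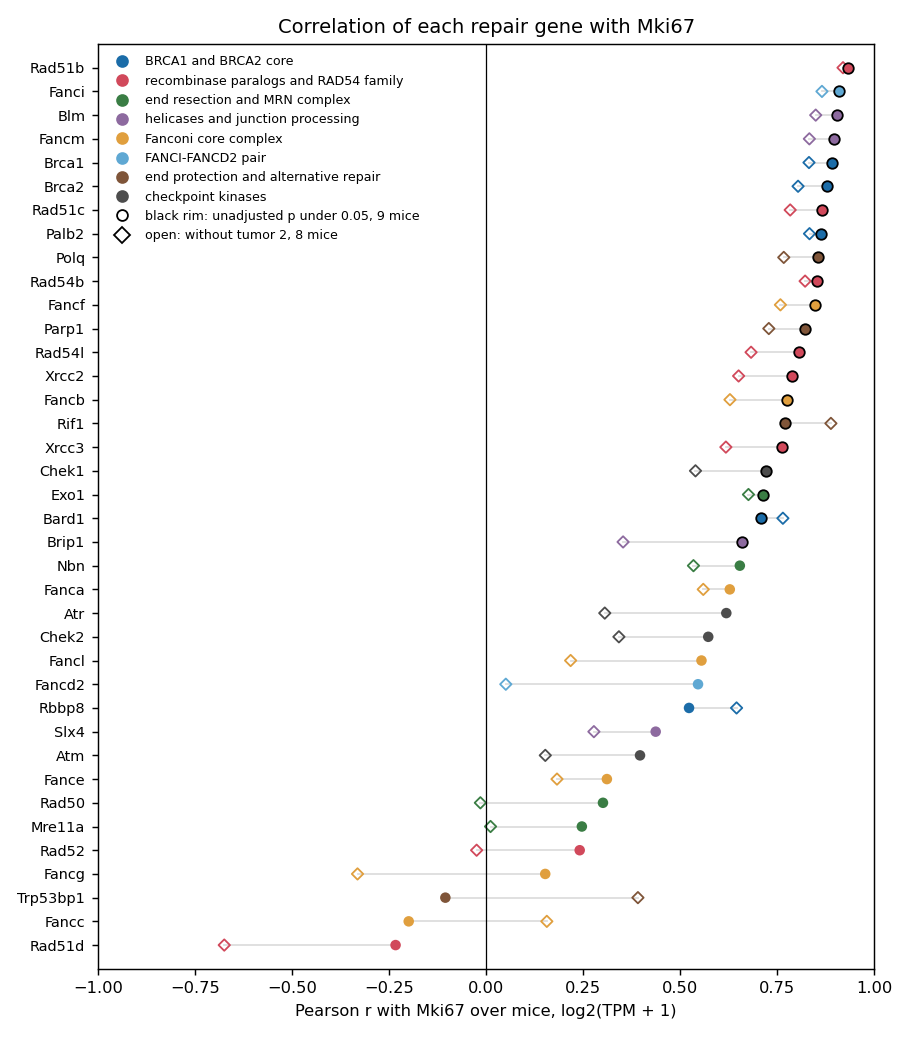
Pearson r of each repair gene with Mki67 over 9 mice (filled points, coloured by role, with a black rim where the unadjusted exact p is under 0.05) and over 8 mice without tumor 2 (open diamonds). Genes are ordered by r, from Rad51d at -0.23 to Rad51b at 0.93, and 21 of 38 have a black rim.

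These relations depended on the ends of the range. Without tumor 2, 14 of 38 members passed the unadjusted level, against 7.3% of genes, with a median r of 0.62, and without tumors 2 and 8, a choice made after the values were seen, the count was 15, against 7.71%, with a median r of 0.65. The 2 mice farthest from the median of Mki67 were those of tumors 2 and 9. Without both, 5 members passed, against 4.39% of genes, namely Palb2, Rad51b, Fanci, Rif1 and Chek2, and the median r was 0.42. For Brca1, r was 0.83 without tumor 2 (exact permutation p = 0.012, 8 mice) and 0.71 without both (exact p = 0.0744, 7 mice), so it stayed large without passing. The same held for Blm (0.72) and Fancm (0.71), whereas r was -0.053 for Brip1 and -0.13 for Chek1, whose relations rest on those 2 mice. Some members also moved when tumor 2 alone was left out. Brip1, the helicase partner of BRCA1, went from 0.66 to 0.35 and Fancd2 from 0.55 to 0.05, while Rad51d went from -0.23 to -0.67 (exact p = 0.0611). The B lymphocyte markers of tumor 2, given above, move with these results, and their part in them was not tested. Over the 9 mice the mean log2 level of the macrophage, endothelial and T lymphocyte markers had r of -0.60, -0.58 and -0.57 with Mki67. For basal, epithelial, milk and fibroblast markers r was -0.48, -0.40, -0.27 and -0.26. For adipocyte, B lymphocyte and skeletal muscle markers it was 0.02, 0.41 and 0.45, and the part of these cells was not tested.

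**Figure D3:**
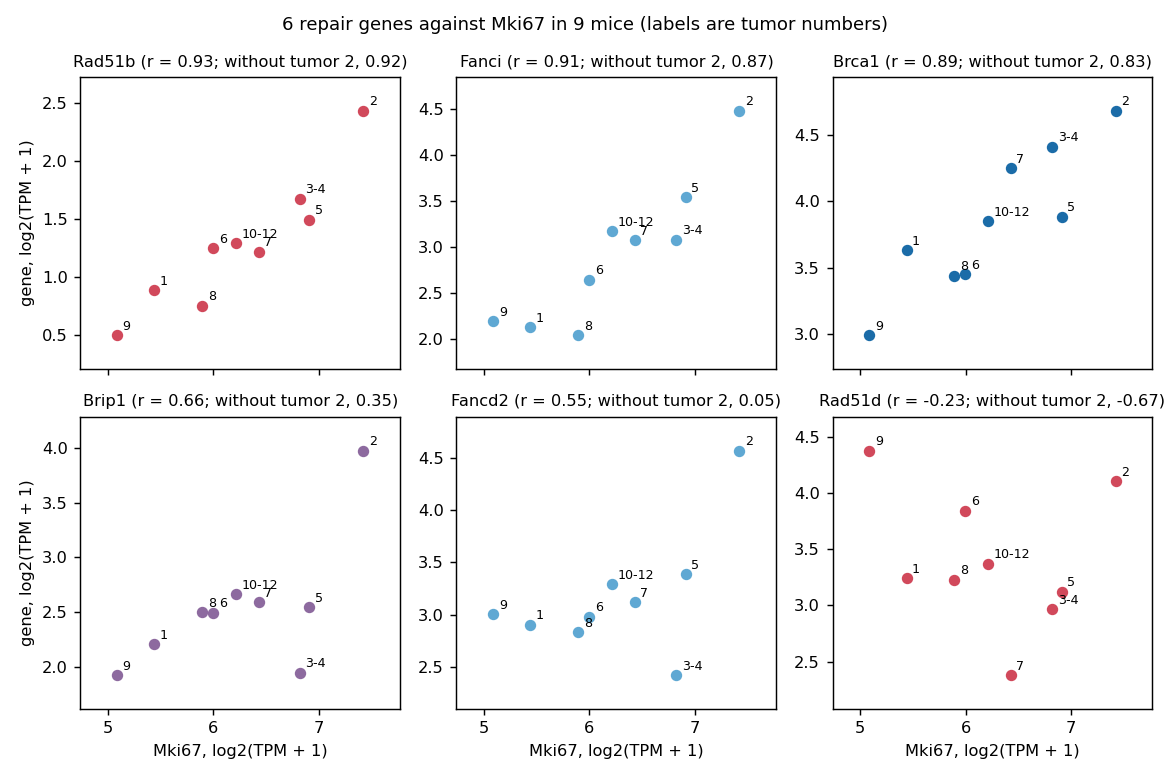
6 repair genes (vertical axes) against Mki67 (horizontal axes), both in log2(TPM + 1), with 1 point per mouse labelled by its tumors. In Rad51b, Fanci and Brca1 r is 0.83 or more with and without tumor 2, in Brip1 and Fancd2 it falls to 0.35 and 0.05 without it, and Rad51d has its highest value in tumor 9, where Mki67 is lowest.

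Other genes of the same pathway were counted in the same fit. Of 63 further genes of crosslink repair, resection, damage signalling and junction resolution, 28 correlated positively with Mki67 at the unadjusted level and 1 negatively, with a median r of 0.59. Rpa2, a subunit of the protein that coats single-stranded DNA (r = 0.94), Dna2, a resection nuclease (r = 0.91), and Clspn, which passes the checkpoint signal to CHK1 (r = 0.90), were among the 28, and Parp3 was the negative one (r = -0.73). Of 15 genes of end joining, the route that rejoins ends without a template, 1 passed, Xrcc1 (r = 0.84), which also acts in single-strand break repair. The median r of the end-joining genes was 0.45. Without tumor 2, 19 of 63 further pathway genes and 1 of 14 end-joining genes passed, against 7.3% of genes, with medians of 0.43 and 0.094. Without the 2 farthest mice, 5 of 63 and 2 of 14 passed, against 4.39% of genes, with medians of 0.34 and 0.075. The counts of the 2 lists then no longer set them apart. As a reference, 17 of 20 mitotic genes and 18 of 20 replication genes passed, with medians of 0.82 and 0.81. Without tumor 2 the counts were 15 and 12 of 20 (medians 0.75 and 0.71), and without the 2 farthest mice they were 4 and 5 (medians 0.53 and 0.44), so the reference lists fell along with the members. Over the 2 lists summed TPM was lowest in tumor 9 (424 and 487 TPM) and highest in tumor 2 (2335 and 2599 TPM), the same tumors as for most members.

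Members also varied together. Over the 703 pairs of the 38 members the median r was 0.50, and over all pairs of tested genes it was 0.02. After the straight line on Mki67 was taken out of every gene, the medians were 0.18 and 0.02, and without tumor 2 they were 0.35 and 0.02 before and 0.13 and 0.00 after that step. Pairs share genes and mice, so these medians are descriptions.

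With Brca1 as the yardstick, 21 of the other 37 members correlated positively at the unadjusted level, against 9.92% of genes. None passed the adjustment, which 32 genes of all did (0.19%). That count was 26 without tumor 8 and 0 with any other mouse left out. The members closest to Brca1 were Fancm (r = 0.94, exact permutation p = 0.00022, adjusted p = 0.0605, n = 9 mice), Brca2 (r = 0.92, exact p = 0.000678) and the recombinase paralog Xrcc3 (r = 0.91, exact p = 0.000265). Of the proteins that bind BRCA1 directly, Bard1, its obligate partner, had r = 0.83 (exact p = 0.00496, rho = 0.95), Palb2 0.79 (exact p = 0.00808), Rbbp8 0.68 (exact p = 0.0436) and Brip1 0.59 (exact p = 0.089). Without tumor 2 and without the 2 farthest mice, r was 0.92 and 0.86 for Bard1 and 0.84 and 0.70 for Rbbp8. Bard1 passed in both settings, and Rbbp8 no longer passed without the 2 farthest mice (exact p = 0.0754). Palb2 had 0.67 and 0.66 and no longer passed (exact p = 0.0677 and 0.108), whereas Brip1 fell to 0.17 and turned to -0.37. Without tumor 2, 13 members passed, against 10.2% of genes, and Rad51d passed in the negative direction (r = -0.86, exact p = 0.00804, 8 mice). The genes outside the list with the highest r were Actl6a, Larp7, Mtbp, Ncaph and Recql4 (r from 0.96 to 0.99, adjusted p from 0.0231 to 0.0403).

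With Fancd2 as the yardstick, 10 of 37 members passed the unadjusted level, against 7.71% of genes, and no gene of all passed the adjustment (0%). Brip1, itself a Fanconi gene, was the closest (r = 0.93, exact permutation p = 0.00462), Fanci had r = 0.78 (exact p = 0.0193), and Fancl, the ubiquitin ligase of the pair, had r = 0.42 (exact p = 0.258). Without tumor 2 these became 0.68, 0.39 and -0.71, and 2 members passed, Rad52 (r = 0.84) and Fancc (r = 0.72), against 2.7% of genes, so 2 of 37 is near the background. The count was 5 without tumor 5, against 6.97% of genes, and 6 without tumor 8, against 6.88%. The mice farthest from the median of Fancd2 were those of tumor 2 and of tumors 3 and 4. Without both, the 2 members that passed were Fanci (r = 0.94, exact p = 0.000794, 7 mice) and Palb2 (r = 0.92, exact p = 0.00139), against 4.24% of genes. With Rad50 as the yardstick no member passed the unadjusted level, against 3.44% of genes, and again no gene passed the adjustment (0%). Rad50 had 11.6 TPM in tumor 8, a median of 17.4 TPM and 25.3 TPM in tumor 2. Its partners in the MRN complex, the nuclease gene Mre11a and the signalling subunit gene Nbn, had r of 0.43 (exact p = 0.254) and 0.02 (exact p = 0.957) with it, and p-values of this size at n = 9 mice do not show that they vary independently. Without tumor 2, r was 0.28 for Mre11a and -0.28 for Nbn and no member passed, against 2.17% of genes. Without tumor 6, 3 members passed the unadjusted level with Rad50, against 5.48% of genes, and without tumors 3 and 4, 1 did, against 3.3%. The 5 outside genes closest to Fancd2 were Mrpl49, Top2b, Agk, Derl3 and H3f3a (r from 0.97 to 0.98), and those closest to Rad50 were Cdkn2aipnl, Rnf146, Rps12-ps5, Zfp688 and Zkscan17 (r from 0.92 to 0.95).

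Tumors of one mouse were compared with tumors of different mice. For all 38 members the mean absolute difference of log2(TPM + 1) was smaller over the 4 pairs of tumors from one mouse than over the 62 other pairs, as it was for 91.5% of genes. The medians were 0.25 and 0.63 for members and 0.31 and 0.63 for all genes. By exact permutation of the animal labels (one-sided), 14 of 38 members passed an unadjusted p of 0.05, against 26.3% of genes, and none passed the adjustment, nor did any other gene (0%). The count of 14 was 8 without tumor 2 (against 21.9% of genes), 4 without tumor 3 (12%), 3 without tumor 4 (12.3%), 6 without tumor 11 (17%) and 9 without tumor 12 (19.1%), and it rose to 21 without tumor 10 (27.7%). Fancb and Rad54l, a motor that remodels recombination intermediates, differed least within a mouse (0.05 and 0.08 against 0.65 and 0.64 between mice). Rad54l had 15.1 and 13.7 TPM in tumors 3 and 4 and 17.6, 17.8 and 18.9 TPM in tumors 10, 11 and 12. Rad51c, Rad51d and Brip1 differed most within a mouse, by 0.64, 0.59 and 0.56 against 0.65, 0.71 and 0.67 between mice.

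**Figure D4:**
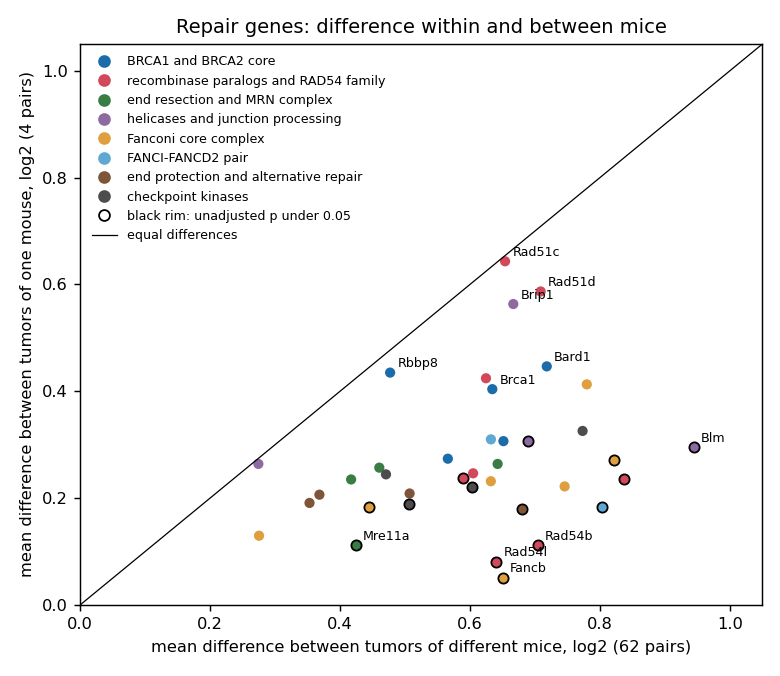
Mean absolute difference of each repair gene in log2(TPM + 1) between tumors of one mouse (vertical axis, 4 pairs) and between tumors of different mice (horizontal axis, 62 pairs), coloured by role. All 38 genes lie below the line of equal differences, with Slx4 (0.26 and 0.27) and Rad51c (0.64 and 0.65) the closest to it, and black rims mark the 14 with an unadjusted p under 0.05.

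The 6 members on chromosome 11, which carries Brca1, p53 and the MADM cassettes, were all lower in tumor 10 than in tumors 11 and 12 of the same mouse, a comparison chosen after the values were seen. Brca1 had 9.08 TPM in tumor 10 and 16.6 and 15.8 TPM in tumors 11 and 12. Brip1 had 3.04 against 7.70 and 6.25 TPM, Rad51c 1.66 against 4.99 and 3.44 TPM, and Rad51d 5.63 against 12.8 and 11.1 TPM. On the log2(TPM + 1) scale tumor 10 minus the mean of the other two was -0.77 for Brca1, -0.97 for Brip1, -0.95 for Rad51c and -0.96 for Rad51d, and these 4 genes lie between 80 and 110 Mb. Rad50 (-0.39) and Fancl (-0.42) lie nearer to the start of the chromosome. The median over 365 other protein-coding genes between 80 and 110 Mb was -0.72, with 77.0% of them lower in tumor 10, and over 171 genes beyond 110 Mb it was 0.33, with 23.4% lower. Over all 13411 protein-coding genes outside the list the median was 0.00. With 1 tumor on one side this is a description of these 3 libraries, and DNA copy number was not analysed here. The macrophage markers summed to 2633 TPM in tumor 10 and 1208 and 1210 TPM in tumors 11 and 12. The B lymphocyte markers summed to 258 against 40.8 and 86.3 TPM, and the epithelial markers to 4182 against 5262 and 5054 TPM. The part of these cells was not tested. Elsewhere, Rbbp8 on chromosome 18 was higher in tumor 10 (45.6 TPM against 26.7 and 25.4 TPM), as was Fanca on chromosome 8 (21.8 against 12.6 and 15.5 TPM), and the medians of these chromosomes were 0.27 and 0.34.

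**Figure D5:**
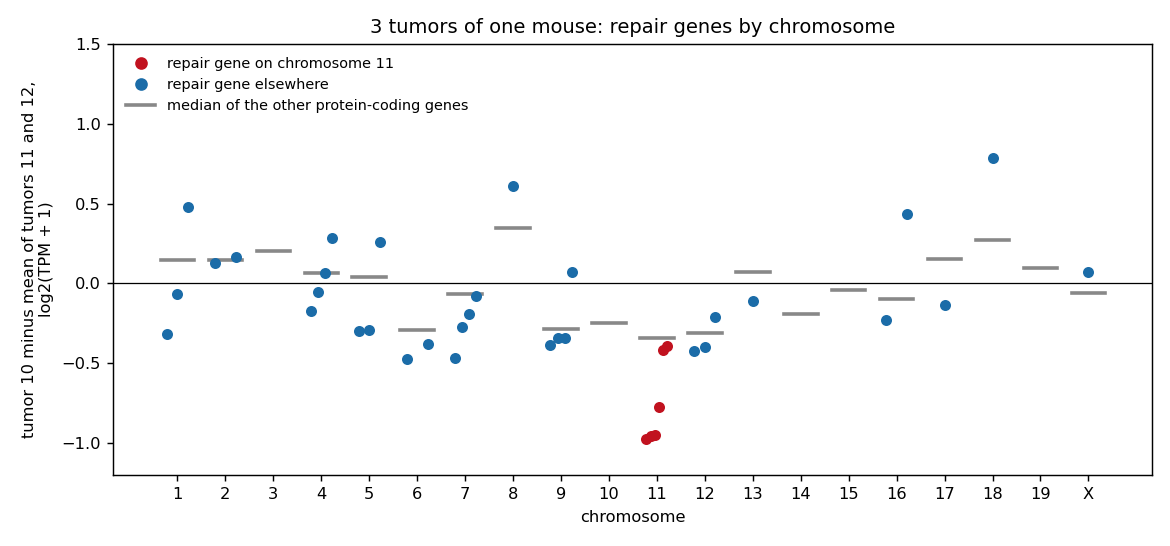
Tumor 10 minus the mean of tumors 11 and 12 of the same mouse, in log2(TPM + 1), for each repair gene by chromosome (points, red on chromosome 11) and for the median of the other protein-coding genes of that chromosome (grey bars). The 6 points of chromosome 11 lie between -0.97 and -0.39, all below 0, as does the grey bar at -0.34.

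Whether members followed the genes around them was then asked over all mice, again after values had been seen. Each gene was correlated with the median of the protein-coding genes within 5 Mb, members left out. Of 38 members 7 passed the unadjusted level in the positive direction, against 27.1% of 13434 genes, and 3 passed the adjustment, against 7.47%. The 3 were Fancm (r = 0.97, exact permutation p = 5.51e-05, adjusted p = 0.0162), Mre11a (r = 0.95, adjusted p = 0.0207) and Trp53bp1 (r = 0.83, adjusted p = 0.0307), and Brca2 had r = 0.82 (exact p = 0.0083, adjusted p = 0.071). The median r was 0.46 for members and 0.44 for all genes. Brca1 had r = 0.32 (exact p = 0.396) with its 194 neighbours, and 0.67 (exact p = 0.0644) without tumor 2, and Slx4 had a negative r of -0.69 (exact p = 0.0382). Without tumor 2, 8 members passed the adjustment, Fancm, Mre11a, Brca2, Rad52, Xrcc3, Xrcc2, Rbbp8 and Atr, against 7.6% of genes, and without tumor 6, 1 did, against 2.75%.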

How the data were processed

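RNA of 12 mammary tumors from 9 mice was sequenced by the authors as stranded polyA libraries with paired ends, trimmed with fastq-mcf, aligned with HISAT2 to GRCm38 and assembled with StringTie 2.1.6, and deposited as TPM per gene. TPM keeps no read numbers, so depth is unknown and no counting interval is given. How transcripts were summed per gene is not given in the sources used here.

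TPM values were taken as log2(TPM + 1), and tumors of one mouse were averaged. Genes with a mean of 1 TPM or more over mice were correlated with Mki67, Brca1, Fancd2 and Rad50 by Pearson's r and Spearman's rho, with exact permutation over the 9 mice (two-sided, smallest p 2.76e-06) and Benjamini-Hochberg adjustment over all genes tested, called at 0.05. Likeness within a mouse was tested by assigning the animal labels to tumors in all 7920 ways (exact permutation, one-sided, smallest p 0.000126). Scripts ran in Python 3.11.15 with numpy 2.4.6, pandas 2.3.3 and scipy 1.17.1 and were tested on simulated data. Positions came from GENCODE vM21, which placed 47137 genes. Promoter sequences came from RefSeq. Members and lists were chosen with earlier results of these data known. All members, Mki67, listed genes and the 5 outside genes closest to each yardstick could be named. The comparisons of tumor 10, of neighbouring genes (at least 5 within 5 Mb) and of member pairs and the fit without tumors 2 and 8 were added after values were seen. Other pseudocounts, filters, units and scalings and each mouse left out were tried.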

Additional observations from a re-analysis of the deposited data

Results flagged for a closer look

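Of 40 values examined over 9 mice (39 repair genes and Mki67, in log2(TPM + 1)), 4 were flagged. In these, 1 mouse had a gap to the next, divided by the whole range, above Dixon's critical ratio of 0.493. For normally distributed values chance flags about 1 in 20, and Dmc1, at 0 in several mice, is not of that kind. The share of all genes flagged this way was not counted, so 4 of 40 is no result about these genes. Brip1, a helicase, was at 3.98 in the mouse of tumor 2, with the next mouse at 2.66, and Fancd2, a target of the Fanconi ligase, was at 4.57 in the same mouse, with the next at 3.39. The low epithelial and high B lymphocyte marker levels of tumor 2 stand beside both values, and their part was not tested. Exo1, an exonuclease of end resection, was at 1.65 in the mouse of tumor 9, the lowest in Mki67, with the next mouse at 3.14. Dmc1, the meiotic recombinase, was at 1.79 in the mouse of tumor 5, with the next at 0.85.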

How the results depend on the processing

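No paired analysis was possible because the samples share a single condition. In every case below the cause was not tested, except that leaving out mice lowers the number of units. The count of genes past the adjustment with Mki67 was 1 and became 0 without a filter, with the mitotic or the replication list as yardstick and without tumors 2 and 8, 2 by Spearman's rho and 182 with each tumor as a unit, which counts tumors of one mouse as independent. With Brca1 it was 32 and became 4 without a filter, 4 by rho and 116 by tumor, and with Fancd2 it was 0 and became 481 by tumor. Members past the adjustment by tumor were 8 with Mki67, 4 with Brca1 and 2 with Fancd2. At the unadjusted level, rho gave 1040 genes with Mki67, 1072 with Brca1 and 700 with Fancd2, and 5 members with Fancd2.

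Without the 2 mice farthest from the median of the yardstick, 0 genes passed the adjustment with Mki67 or Brca1. With 7 mice, here and without tumors 2 and 8, the smallest possible exact p is 0.000198, at which a few genes alone cannot pass. At the unadjusted level 722 genes passed with Mki67, 870 with Brca1, 706 with Fancd2 and 269 with Rad50, and 5, 8 and 2 members with the first 3. The r with Mki67 then changed sign for Rad52 (-0.13), Mre11a (-0.60), Nbn (-0.11), Brip1 (-0.053), Fance (-0.37), Fancg (-0.024), Slx4 (-0.61), Atm (-0.13) and Chek1 (-0.13), as did r of Brip1 with Brca1 (-0.37), Fancl with Fancd2 (-0.21), Mre11a with Rad50 (-0.43) and Nbn with Rad50 (-0.46). By rho, Fancc had 0.033 with Mki67 and Fancl -0.033 with Fancd2, and by tumor Nbn had -0.10 with Rad50. The mitotic list gave 0.068 for Fancc, -0.048 for Fancg and 0.24 for Trp53bp1, and the replication list 0.12 for Trp53bp1. Without tumors 2 and 8, Rad52 had -0.11, Rad50 -0.11, Fancc 0.14, Fancg -0.44 and Trp53bp1 0.37 with Mki67.

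With each mouse left out in turn, genes past the adjustment ranged from 0 to 0 with Mki67, from 0 to 26 with Brca1 and from 163 (without tumors 10 to 12) to 1016 with neighbours. Members past it ranged from 0 to 1 with Brca1 and from 1 to 8 with neighbours. At the unadjusted level members ranged from 13 to 22 with Brca1, from 2 to 13 with Fancd2 and from 0 to 3 with Rad50, and genes from 1373 to 1718 with Brca1, from 451 to 1588 with Fancd2 and from 363 to 923 with Rad50. For likeness within a mouse single tumors were left out, and the count ranged from 3 to 21 members and from 2013 to 4916 genes. The r with Mki67 ranged from -0.67 to 0.39 for Trp53bp1, -0.024 to 0.62 for Rad52, -0.015 to 0.44 for Rad50, -0.58 to 0.16 for Fancc, -0.33 to 0.43 for Fancg, -0.67 to 0.18 for Rad51d, -0.15 to 0.44 for Mre11a, -0.093 to 0.50 for Fance and -0.081 to 0.58 for Slx4. Fancl with Fancd2 ranged from -0.71 to 0.81, Nbn with Rad50 from -0.28 to 0.15 and Brca1 with its neighbours from -0.022 to 0.67. The 21 members that passed with Mki67 kept a positive r under every alternative run except Brip1 and Chek1 above. With no read numbers, low genes such as Dmc1 and Rad51b have an unknown counting error.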
